A study of Mus musculus with 21 samples.

Results

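The 10 genes described here set the pace of the G1 phase of the cell cycle or stop it: the D cyclins Ccnd1, Ccnd2 and Ccnd3, the CDK inhibitors Cdkn1a, Cdkn1b, Cdkn2a, Cdkn2b and Cdkn2c, the tumour suppressor Trp53 and its antagonist Mdm2. They were taken by gene symbol from 43436 genes measured by RNA sequencing in 21 mouse libraries, with earlier results of these data known. All 10 passed the filter on low values. In mm10 the genes span chr7:144929931-144939869 (Ccnd1), chr6:127125779-127151048 (Ccnd2), chr17:47505051-47599691 (Ccnd3). The inhibitor genes span chr17:29090979-29100722 (Cdkn1a), chr6:134920401-134925513 (Cdkn1b), chr4:89274471-89294653 (Cdkn2a), chr4:89306289-89311032 (Cdkn2b), chr4:109660876-109667189 (Cdkn2c), and chr11:69580359-69591873 holds Trp53 and chr10:117688888-117710758 Mdm2. All are protein-coding, and each value sums a whole gene. The study is about chemical reprogramming, the conversion of embryonic fibroblasts to pluripotent cells by small molecules instead of added genes. Levels are FPKM, which scale the fragments of a gene by its length and by library size. Mouse embryonic fibroblasts (MEF, 2 libraries) were taken from embryos at E13.5. Cells under reprogramming form a series of 5 time points, with 2 libraries at day 16 and 1 each at day 12, day 20, day 26 and day 28. Chemically induced pluripotent stem cells (CiPSC) were 7 lines of 1 library each, named C1 to C3, G1 and G3, and N4 and N6. MEF, the cells under reprogramming, CiPSC and replicate 1 of the embryonic stem cells (ESC, 2 libraries from E3.5 embryos) carry the strain label C57BL/6J-Tg(GOFGFP)11Imeg/RbrcxICR, a GFP reporter background shared by all of them, and ESC replicate 2 is C57BL/6 (B6)N. Extraembryonic endoderm (XEN) cells, all wild-type ICR, came as 1 established line (eXEN, 2 libraries) and as cells derived from E3.5 embryos in the stage 1 reprogramming medium with VC6TFAE and 20 ng/ml bFGF (CeXEN, 2 libraries). The eXEN replicates differ in culture: replicate 1 grew in stage 1 medium with VC6TF and 20 ng/ml bFGF, replicate 2 in traditional XEN medium. Strain and cell type therefore cannot be told apart when XEN cells are set against other groups. The p-values measure the spread between these libraries, pooled over the groups. That spread includes medium in eXEN, strain in ESC and line in CiPSC. For MEF, day 16 and CeXEN the labels do not say whether replicates are separate cultures, so their spread may be technical.

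D cyclins bind the kinases Cdk4 and Cdk6, which phosphorylate the retinoblastoma protein and so release E2F factors that switch on genes of DNA replication. Ink4 inhibitors (products of Cdkn2a, Cdkn2b and Cdkn2c) block Cdk4 and Cdk6, while p21 (Cdkn1a) and p27 (Cdkn1b) act mainly on Cdk2. Cdkn2a also encodes p19Arf, which holds back Mdm2, the ubiquitin ligase that degrades p53. The p53 protein in turn switches on Cdkn1a and Mdm2. These genes are known as barriers to reprogramming, since arrest and senescence stop cells from dividing. Mouse pluripotent cells are known for a short G1 phase.

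The sequences before the transcription starts of Cdkn1a and of the Cdkn2 locus are shown because the first carries a p53 site and because the Cdkn2a values add transcripts from 2 starts. All are from RefSeq on GRCm38.p6, the build of the files (mm10). The table of windows, from 250 bases before to 50 bases after a start, holds 12 windows for 8 of the 10 genes, and none for Ccnd1 and Ccnd2. The line for Cdkn1a is chr17:29090908-29090967, plus strand. Its capitals mark a pair of adjacent p53 half-sites (chr17:29090928-29090947) with 1 mismatch to the consensus of 20 bases, ending 31 bases before the upstream of 2 starts listed for the gene. The consensus reads the same on both strands, and a match with at most 1 mismatch was present in 29 of 32851 windows (0.0883%). Among the 12 windows of these genes it was present in this 1 alone. It is a match of letters and says nothing of binding.
Cdkn1a: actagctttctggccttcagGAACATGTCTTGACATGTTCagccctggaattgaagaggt
The next lines are the 60 bases before each start of Cdkn2a and Cdkn2b, on the minus strand, with CpG dinucleotides in capitals. For the upstream Cdkn2a start, that of the Arf transcript, these bases lie at chr4:89294620-89294679. For the downstream start, that of the Ink4a transcript, they lie at chr4:89282193-89282252, and the 2 starts are 12427 bases apart. The bases before the Cdkn2b start lie at chr4:89311033-89311092. The Cdkn2a span given with the values ends at 89294653, inside the first of these stretches.
Cdkn2a upstream: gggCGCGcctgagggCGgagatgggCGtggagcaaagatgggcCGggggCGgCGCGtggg
Cdkn2a downstream: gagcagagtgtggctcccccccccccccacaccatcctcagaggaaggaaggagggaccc
Cdkn2b: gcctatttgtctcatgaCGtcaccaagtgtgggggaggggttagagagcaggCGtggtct
In the 250 bases before the start there were 40 CpG at the upstream Cdkn2a start, 7 at the downstream start and 12 at Cdkn2b, beside a median of 6 over all windows. The gene level FPKM cannot tell the Arf from the Ink4a transcript.

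FPKM summed to between 543198 and 864945 per library, and 11240 to 13982 genes reached 1 FPKM. Read counts are not in the values, but low values put the depth between 0.4 and 1.57 times that of ESC replicate 1. The authors' bounds around the values of the 10 genes had a half-width of 1.84% to 48.8% (median 8.32%) for the 201 values of at least 1 FPKM. The 7 fibroblast markers (Col1a1, Thy1 and others) summed to 3154 to 9415 FPKM in MEF, 571 at day 12, 8.30 at day 28 and at most 4.68 in ESC, with CiPSC at 5.51 to 88.5. The 7 XEN markers (Gata4, Sox17 and others) summed to 805 FPKM at day 12, 1124 to 1660 in the other libraries from day 16 to day 28, CeXEN and eXEN, and at most 88.8 elsewhere. The 7 pluripotent markers (Pou5f1, Nanog and others) summed to at least 4287 FPKM in ESC and CiPSC. They summed to 195 and 5.66 FPKM in day 16 replicates 1 and 2, with Dppa5a at 131 and 0.727. The other days had 27.9 (day 12), 166 (day 20), 631 (day 26) and 342 (day 28), and MEF, CeXEN and eXEN at most 51.3. The 6 blood markers summed to 44.8 to 109 FPKM in MEF and at most 17.6 elsewhere; Ptprc was at 0 outside MEF and Cd68 was present in every library. Lines C1 and C2 were closer to each other than any other pair of CiPSC lines: their mean squared difference was 1.49 times counting error, beside 3.71 to 11.1 for the other pairs. They still differed by more than counting error and were kept as 2 lines. The files of day 12, day 16 replicate 1, day 20 and day 26 mark 446 genes as LOWDATA, a status absent from the other files, so that the processing of these libraries may have differed.

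**Figure D1:**
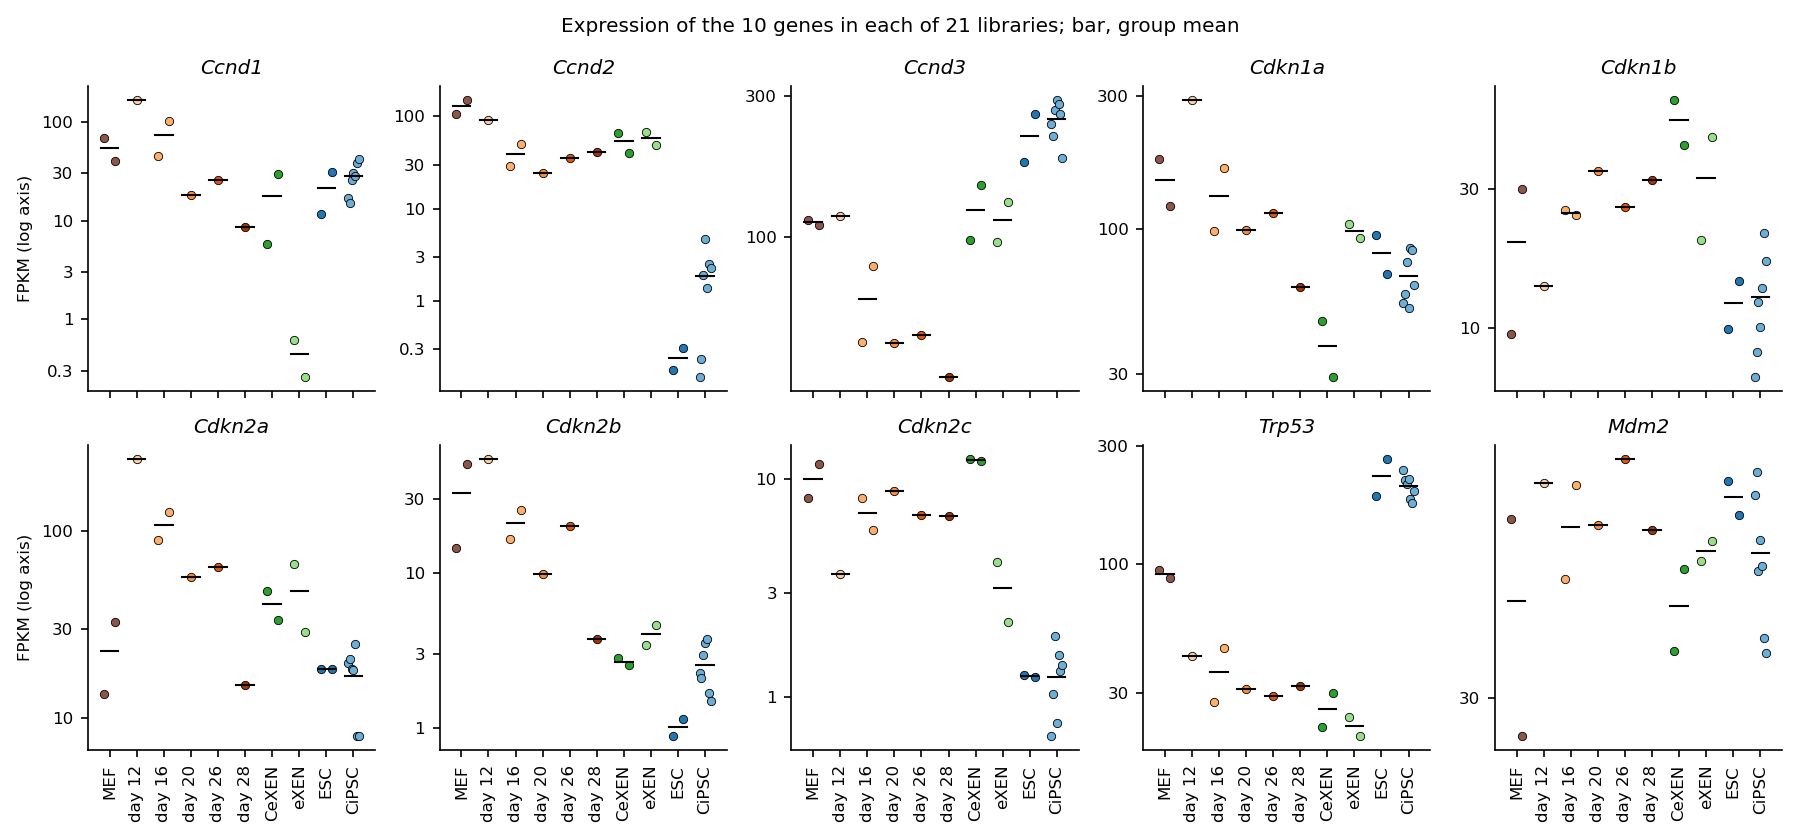
Expression of each of the 10 genes in FPKM on a log axis, by group. Points are libraries and bars are group means; Ccnd2 and Trp53 separate ESC and CiPSC from all other libraries, in opposite directions, and Ccnd1 is under 1 FPKM only in eXEN.

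Ccnd1, the D cyclin best known as a target of growth factor signals, was nearly silent in the established XEN line and highest at day 12. It stood at 69.1 and 39.6 FPKM in MEF, 166 at day 12, 45.1 and 102 at day 16, 18.3 at day 20, 25.8 at day 26 and 8.68 at day 28. In eXEN it was at 0.623 and 0.261 FPKM (the authors' lower bound for replicate 2 is 0) and in CeXEN at 5.75 and 29.5. ESC gave 11.8 and 31.3 FPKM, and CiPSC 14.9 to 41.5 with a median of 28.0. The eXEN libraries lay below every other library, including the day 28 library, and the 2 CeXEN libraries differed widely from each other. The CeXEN library with the higher Ccnd1 also had the higher fibroblast marker level, with Col1a1 at 10.1 against 0.106 FPKM; the part of this in the result was not tested. In bulk RNA, fewer cells that express a gene and less RNA per cell cannot be told apart.

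Ccnd2 was the D cyclin that pluripotent cells nearly lacked. It stood at 107 and 151 FPKM in MEF, 90.6 at day 12, 28.9 and 50.03 at day 16, 24.2 at day 20, 35.7 at day 26, 40.9 at day 28, with CeXEN at 66.5 and 40.4 and eXEN at 68.2 and 48.5. ESC gave 0.177 and 0.306 FPKM, and CiPSC 0.149 to 4.68 with a median of 1.90. The 9 pluripotent libraries lay below the lowest of the other 12. Within CiPSC, lines C1 and C2 (0.149 and 0.233 FPKM) were at the level of ESC, and the authors' upper bounds there were 0.236 and 0.337. The other 5 lines, at 1.37 to 4.68 FPKM, had lower bounds of at least 1.13, above the upper bounds of both ESC libraries (0.276 and 0.426). The same 5 lines had Col1a1 at 22.5 to 44.0 FPKM and the collagen crosslinking enzyme Lox at 6.27 to 16.5, against 2.68 and 3.76 for Col1a1 and at most 0.112 for Lox in C1 and C2; the part of fibroblast RNA in their Ccnd2 level was not tested.

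Ccnd3, the D cyclin shared by most tissues, was the main D cyclin of pluripotent cells. It stood at 114 and 110 FPKM in MEF, 118 at day 12, 44.3 and 80.1 at day 16, 44.1 at day 20, 46.8 at day 26 and 33.8 at day 28. XEN cells were at the MEF level, with 97.7 and 150 FPKM in CeXEN and 96.6 and 132 in eXEN. ESC gave 180 and 261 FPKM, and CiPSC 185 to 291 with a median of 260. All 9 pluripotent libraries lay above all others. On the opposite strand Ccnd3 overlaps Bysl over 361 bases (highest Bysl level 39.8 FPKM) and Ccnd1 overlaps Oraov1 over 1771 bases (36.3 FPKM), and whether the counting used strand is not given in the sources used here.

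As shares of the summed D-cyclin FPKM, a quantity per length, Ccnd3 made up 80.9% to 93.6% in CiPSC, 93.8% and 89.2% in ESC, 58.4% and 73.0% in eXEN, 57.5% and 68.2% in CeXEN and 39.4% and 36.7% in MEF. Ccnd1 took its highest share at day 12 (44.4%) and day 16 (38.1% and 44.0%). Ccnd2 took 49.0% at day 28 and 36.8% and 50.1% in MEF, against at most 1.43% in any pluripotent library. The sum itself was 290 and 301 FPKM in MEF, 375 at day 12, 83.4 to 232 from day 16 to day 28, 165 to 220 in the XEN libraries and 192 to 326 in ESC and CiPSC. The sums of MEF lay within the range of the pluripotent libraries, from other genes, whereas days 20 to 28 had the lowest sums (83.4 to 108).

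**Figure D2:**
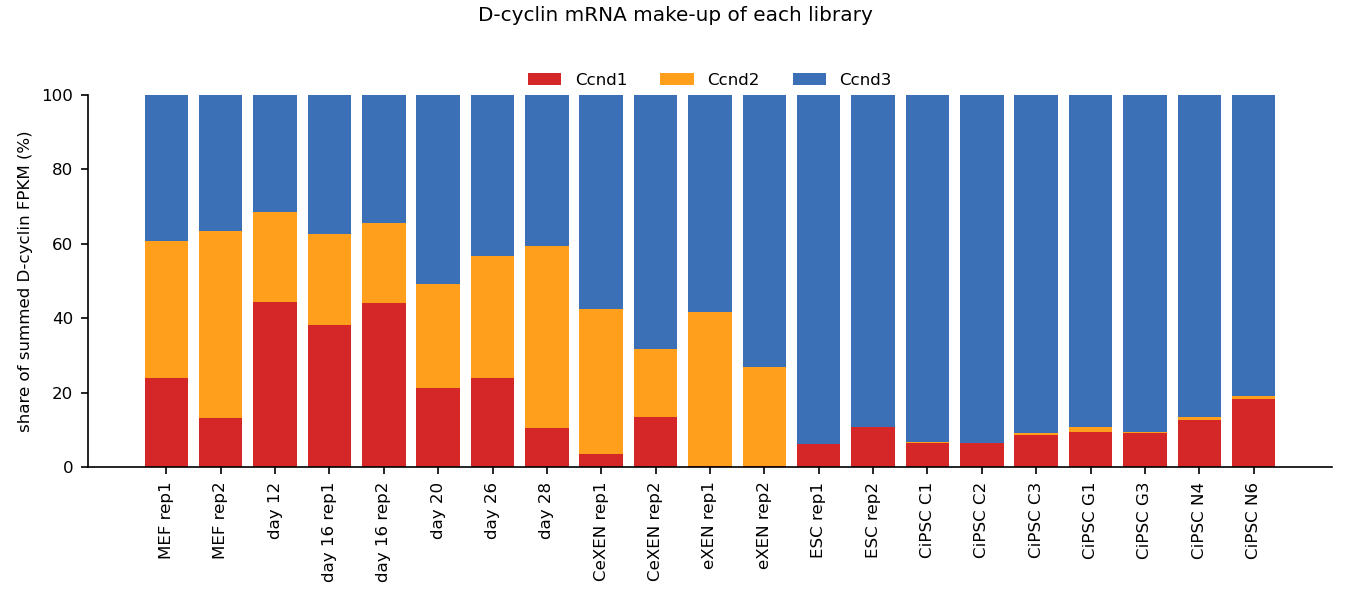
Stacked bars give the share of Ccnd1, Ccnd2 and Ccnd3 in the summed D-cyclin FPKM of each of the 21 libraries, in percent. Ccnd3 takes at least 80.9% in every ESC and CiPSC library, and Ccnd1 takes 0.376% and 0.144% in eXEN.

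Cdkn1a, which encodes p21, the main p53-driven inhibitor, was expressed in every library and highest at day 12. It stood at 179 and 121 FPKM in MEF, 291 at day 12, 98.4 and 165 at day 16, 99.2 at day 20, 114 at day 26 and 61.8 at day 28. CeXEN, at 46.5 and 29.3 FPKM, were the lowest of the 21 libraries, while eXEN, at 104 and 92.8, overlapped ESC (94.9 and 68.7). CiPSC ranged from 52.0 to 85.2 FPKM with a median of 62.8.

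Cdkn1b, which encodes p27, had its highest mean in CeXEN (60.3 and 42.4 FPKM) and its lowest in ESC. The MEF replicates lay far apart (9.51 and 29.8 FPKM), and the days gave 13.9 at day 12, 25.2 and 24.3 at day 16, 34.4 at day 20, 25.9 at day 26 and 32.2 at day 28. It stood at 20.1 and 45.2 FPKM in eXEN, 9.92 and 14.5 in ESC and 6.79 to 21.1 in CiPSC, with a median of 12.2. The gene was called in none of the 8 comparisons, and without eXEN replicate 1 it was called higher in eXEN than in ESC (log2 difference 1.83, adjusted p of 0.0366), and without CiPSC line N4 lower in CiPSC than at day 16 (-1.12, adjusted p of 0.0381).

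Cdkn2a, the Ink4a and Arf locus, was highest at day 12 and within the range of pluripotent cells at day 28; most days have 1 library and are not tested. It stood at 13.4 and 32.5 FPKM in MEF, 242 at day 12, 89.4 and 126 at day 16, 56.8 at day 20, 64.2 at day 26 and 15.1 at day 28. The XEN libraries lay between, with 47.7 and 33.2 FPKM in CeXEN and 66.7 and 28.8 in eXEN. ESC gave 18.3 and 18.3 FPKM, and CiPSC 7.99 to 24.8 with a median of 18.3. Lines N4 and N6 shared the lowest level, 7.99 FPKM each, against 18.1 to 24.8 in the other 5 lines.

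Cdkn2b, which encodes the Ink4 inhibitor p15, was highest at day 12 and in MEF replicate 2, with the MEF range spanning that of day 16. It stood at 14.6 and 50.6 FPKM in MEF, 54.1 at day 12, 16.5 and 25.4 at day 16, 9.87 at day 20, 20.1 at day 26 and 3.77 at day 28. CeXEN (2.81 and 2.55 FPKM) and eXEN (3.42 and 4.64) lay near the day 28 library and the CiPSC range (1.48 to 3.74, median 2.26), with eXEN replicate 2 above it. ESC were lowest at 0.883 and 1.14 FPKM, below every CiPSC line. The ratio of Cdkn2a to Cdkn2b, its neighbour on the chromosome, was 0.919 and 0.642 in MEF and at least 3.20 in all other libraries.

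Cdkn2c, which encodes the Ink4 inhibitor p18, had its highest mean in CeXEN and its lowest in pluripotent cells. It stood at 8.19 and 11.8 FPKM in MEF, 3.66 at day 12 and 5.84 to 8.83 from day 16 to day 28. It was 12.3 and 12.1 FPKM in CeXEN and 4.15 and 2.20 in eXEN. All 9 pluripotent libraries were under 2 FPKM: 1.26 and 1.24 in ESC and 0.660 to 1.91 in CiPSC, with a median of 1.32. Day 12, where Cdkn2a, Cdkn2b and Cdkn1a were highest, was the lowest of the reprogramming days for Cdkn2c.

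Trp53 mRNA was high in pluripotent cells and low along the XEN stage. It stood at 94.2 and 87.2 FPKM in MEF, 42.3 at day 12, 27.6 and 45.5 at day 16, 30.9 at day 20, 29.0 at day 26, 31.9 at day 28. The XEN libraries were lowest or nearly so, with CeXEN at 21.8 and 29.8 and eXEN at 23.9 and 20.0 FPKM. ESC gave 188 and 265 FPKM, and CiPSC 176 to 240 with a median of 210. The 3 levels (XEN cells with the reprogramming days, MEF, and pluripotent cells) did not overlap. Trp53-ps, the pseudogene, is listed at 0 in every library.

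Mdm2 ranged from 25.1 to 91.8 FPKM and did not set the groups apart. It stood at 69.5 and 25.1 FPKM in MEF, 82.0 at day 12, 52.3 and 81.4 at day 16, 67.3 at day 20, 91.8 at day 26, 65.8 at day 28, with CeXEN at 37.5 and 55.0, eXEN at 56.9 and 62.6, ESC at 83.0 and 70.5 and CiPSC at 37.1 to 86.5, with a median of 55.7. The MEF replicates lay far apart, and Mdm2 was called in none of the 8 comparisons; without MEF replicate 1, the higher of the pair, it was called higher at day 16 (log2 difference 1.34, adjusted p of 0.0423) and in CiPSC (1.15, adjusted p of 0.0284) than in MEF. The ratio of Mdm2 to Trp53 mRNA was 1.72 to 3.17 in the 10 libraries from day 12 to day 28, CeXEN and eXEN, 0.738 and 0.288 in MEF and 0.188 to 0.441 in ESC and CiPSC.

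**Figure D3:**
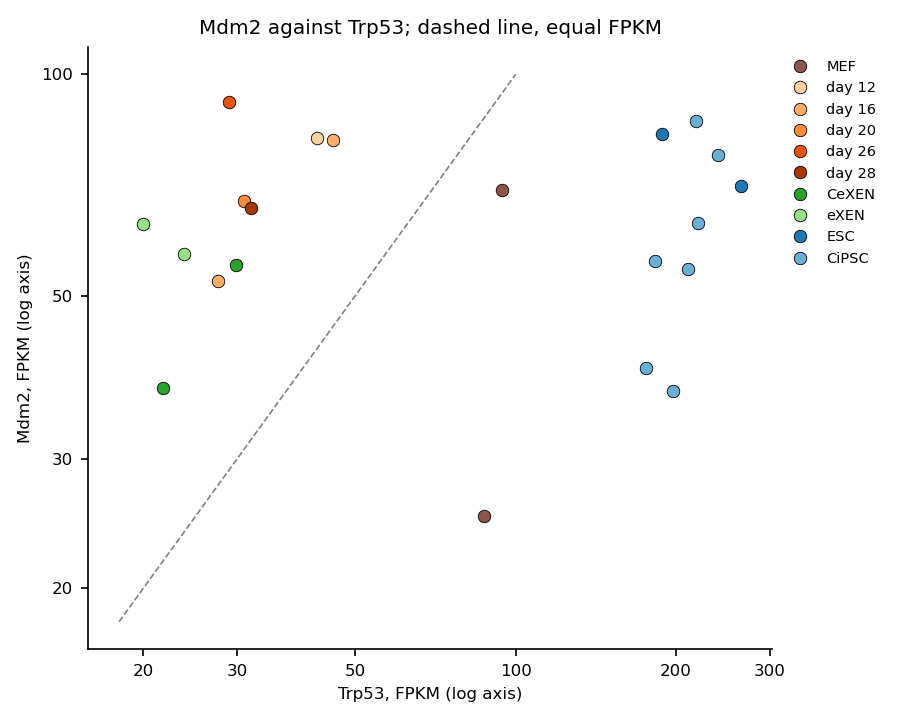
Mdm2 against Trp53 in FPKM, both on log axes, with 1 point per library and a dashed line at equal FPKM. The reprogramming days and XEN cells lie above the line (ratios of 1.72 to 3.17), and MEF, ESC and CiPSC lie below it.

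Over the days, Ccnd1, Cdkn1a, Cdkn2a and Cdkn2b were the 4 of the 10 genes that were lower at day 28 than at day 12 in the greatest proportion. Both days have 1 library, so there is no test. The FPKM sum of all genes was also lower at day 28 (681667 against 728246). From day 12 to day 28, Ccnd1 went from 166 to 8.68 FPKM, Cdkn1a from 291 to 61.8, Cdkn2a from 242 to 15.1 and Cdkn2b from 54.1 to 3.77. Over the same days the fibroblast surface marker Thy1 went from 310 to 3.91 FPKM and Col1a1 from 133 to 1.03. Day 26 was above day 20 for these 4 genes and for both markers (Thy1 53.7 against 33.0, Col1a1 14.7 against 6.19). The part of remaining fibroblasts in these levels was not tested. Of the 7 markers' sum day 12 had 571 FPKM against 3154 and 9415 in MEF, while its Thy1 level lay within the MEF range (259 to 353). Trp53 (42.3 to 31.9 FPKM) and Mdm2 (82.0 to 65.8) differed less between day 12 and day 28, and Cdkn1b was higher at day 28 than at day 12.

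**Figure D4:**
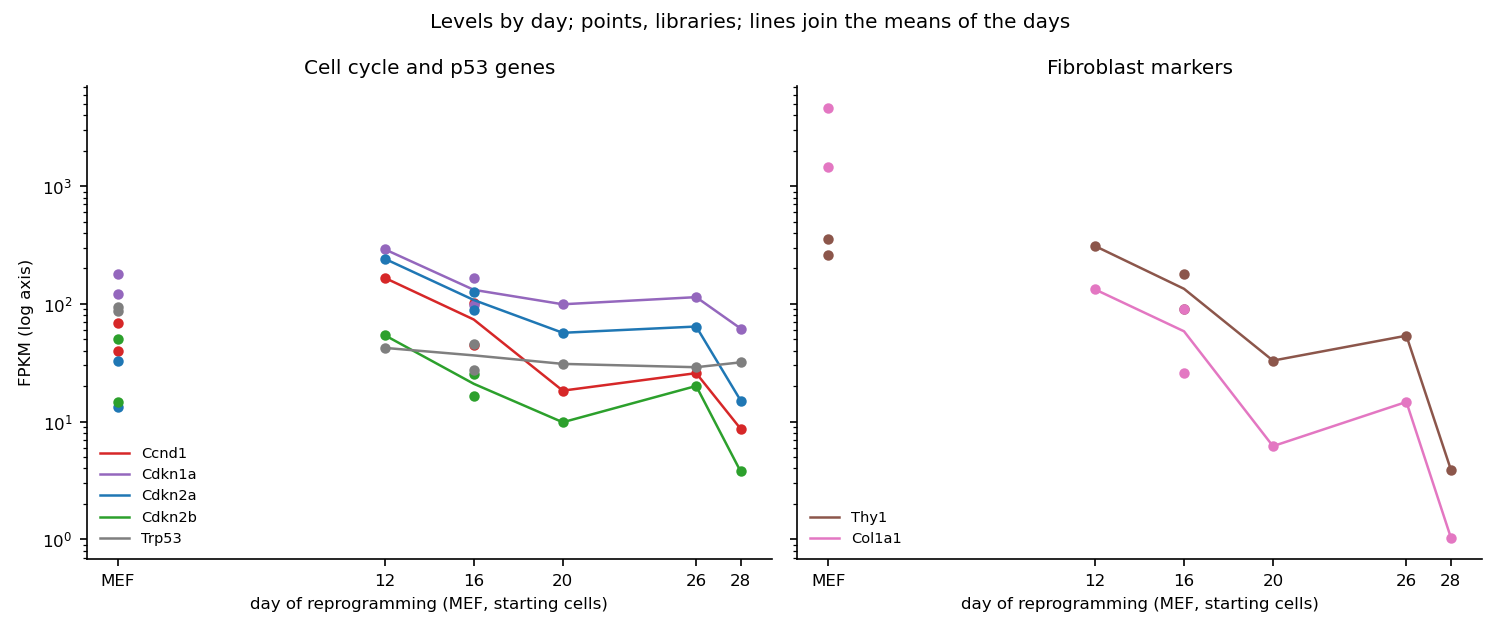
Left, FPKM on a log axis of Ccnd1, Cdkn1a, Cdkn2a, Cdkn2b and Trp53 in MEF and on the reprogramming days; right, the fibroblast markers Thy1 and Col1a1 on the same axis. Points are libraries and lines join the means of the days; at day 28 Cdkn2a is at 15.1, Cdkn2b at 3.77 and Thy1 at 3.91 FPKM.

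Day 16 against MEF asks what the early XEN-like stage changed in fibroblasts of the same strain. Cdkn2a rose by 2.29 on the log2(FPKM + 1) scale (SE 0.54, adjusted p = 0.00599), from 13.4 and 32.5 FPKM in MEF to 89.4 and 126 at day 16, without overlap. Trp53 fell by 1.33 (SE 0.24, adjusted p = 0.000996), and Ccnd2 fell by 1.71 (SE 0.61, adjusted p = 0.0477). Calls needed an adjusted p below 0.05 in limma together with a log2 difference of 1 or more. Of the 10 genes 3 were called, 1 higher and 2 lower, beside 20.7% of all 16650 genes tested (2219 higher and 1233 lower). These calls rest on single libraries: Ccnd2 was lost when any 1 of the 4 libraries was left out (adjusted p 0.0593 to 0.266), Cdkn2a without MEF replicate 1 (log2 difference 1.68, adjusted p = 0.0685), and Trp53 without day 16 replicate 1 (log2 difference -0.98, adjusted p = 0.0178). Under median-of-ratios scaling the share of higher genes among all calls was 48.6%, and under quantile normalization 47.0%, against 64.3% here.

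Of 26 other p53 target genes, 4 were higher at day 16 than in MEF and 1 lower, with a median log2 difference of -0.19 beside 0.22 over all genes; without day 16 replicate 2 there were 3 of each, and without MEF replicate 1 there were 4 higher and 2 lower. Gadd45a, a stress gene, was 2.73 higher but lost its call without MEF replicate 1 or day 16 replicate 1 (adjusted p 0.0659 and 0.127). Ppm1d, a phosphatase that turns p53 off, rose by 2.27 (SE 0.25, adjusted p = 1.32e-05), and Btg2, an antiproliferative gene, rose by 1.61 (SE 0.34, adjusted p = 0.00294), while Bax, the apoptotic effector, was at 168 ± 54.4 against 162 ± 54.3 FPKM and was not called. Among G1/S partners (CDKs, the RB family, E2F factors, cyclins E and A), 4 of 18 were higher and none lower, among them Cdk2 (1.60, SE 0.20, adjusted p = 3.83e-05) and E2f5 (1.37, SE 0.30, adjusted p = 0.00377); 2 remained without MEF replicate 2 or day 16 replicate 2. Of 12 regulators of the Ink4 and Arf genes, Ets1, an activator of Ink4a, fell by 2.64 (SE 0.29, adjusted p = 1.23e-05), and Cbx7, a Polycomb repressor of the locus, was higher but lost its call without MEF replicate 2 or day 16 replicate 1 (adjusted p up to 0.176). Of 16 secreted and lysosomal genes associated with senescence, 9 fell and 1 rose, with a median of -1.80; without MEF replicate 1 or day 16 replicate 1 the calls were 3 lower and 1 higher. The chemokine Cxcl5 fell by 2.95 (SE 0.52, adjusted p = 0.000699), whereas the growth factor Areg rose by 2.95 (SE 0.37, adjusted p = 4.72e-05). Many genes of this list are made by fibroblasts, whose markers were lower at day 16 (sum of 146 and 327 FPKM at day 16 against 3154 and 9415); their part was not tested. Of 20 proliferation genes 2 were higher, Mcm7 and Lmnb1, and both were under 1 log2 unit without MEF replicate 2; without MEF replicate 1, 11 were higher.

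CiPSC against MEF spans the whole route. Trp53 rose by 1.17 (SE 0.20, adjusted p = 0.000159) and Ccnd3 by 1.13 (SE 0.24, adjusted p = 0.00112). Ccnd2 fell by 5.67 (SE 0.49, adjusted p = 3.07e-07), Cdkn2b fell by 3.04 (SE 0.36, adjusted p = 7.63e-06), Cdkn2c fell by 2.30 (SE 0.25, adjusted p = 3e-06) and Cdkn1a fell by 1.14 (SE 0.26, adjusted p = 0.00182). Cdkn2a was not called (16.8 ± 6.41 FPKM, SD, n = 7, against 13.4 and 32.5 in MEF). Thus 6 of 10 genes were called, 2 higher and 4 lower, beside 37% of all genes (3620 higher and 2547 lower). The rises of Trp53 and Ccnd3 were smaller than 1 log2 unit under quantile normalization (0.98 and 0.94) and median-of-ratios scaling (0.86 and 0.82), which move the median of all genes from 0.25 to 0.07 and 0.05 and the share of higher calls from 58.7% to 49.7% and 46.3%. Without MEF replicate 1 the difference of Cdkn1a was -0.85 with an adjusted p of 0.0518.

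Of the proliferation genes, 17 of 20 were higher in CiPSC than in MEF and none lower, with a median of 1.59 beside 0.25 over all genes. Without MEF replicate 2, Cdc20, Aurka, Aurkb and Rrm2 were under 1 log2 unit (0.87, 0.75, 0.61 and 0.28), and Plk1 also lost its call. The replication helicase subunits led, with Mcm7 up by 2.48 (SE 0.23, adjusted p = 6.66e-07). Among G1/S partners 6 of 18 were higher and 1 lower: cyclin E1 (Ccne1) rose by 2.38 (SE 0.45, adjusted p = 0.00044) and the phosphatase Cdc25a by 1.77 (SE 0.29, adjusted p = 0.000124). E2f5, among the higher, and Rbl2, the lower gene, were under 1 log2 unit in size without MEF replicate 2 (0.86 and 0.82). Of 11 p53 regulators tested, 5 were higher and 1 lower, among them the checkpoint kinases Chek1 (2.27, SE 0.26, adjusted p = 4.51e-06) and Chek2 (2.09, SE 0.16, adjusted p = 1.37e-07). Of the p53 target genes 5 of 26 were higher and 5 lower, with a median of 0.26. Among the higher genes Trp53inp1, Sesn1 and Sesn2 lost their call without MEF replicate 1 (adjusted p of 0.131 to 0.391) and Pmaip1 without MEF replicate 2 (0.0682). Sesn1 and Sesn2 were also not called under quantile normalization or median-of-ratios scaling. The lower 5 were kept when any 1 library was left out; the kinase Plk2 fell by 2.44 (SE 0.28, adjusted p = 5.05e-06) and the death receptor Fas fell by 2.21 (SE 0.25, adjusted p = 4.06e-06). Of the 12 Ink4 and Arf regulators 3 were higher (Cbx7, Tbx3 and Kdm2b) and 5 lower (Ets1, Jdp2, Tbx2, Bmi1 and Ets2). Ets2 lost its call when any of 7 of the 9 libraries was left out, and the other calls were kept. Cbx7 went from 0.662 ± 0.0383 FPKM in MEF to 83.6 ± 15.4 in CiPSC (log2 difference 5.65, SE 0.38, adjusted p = 2.8e-08), and Ets1 fell by 4.11 (SE 0.23, adjusted p = 4.85e-09). Of the senescence-associated list 13 of 16 fell, led by Igfbp7 (727 ± 53.6 to 11.1 ± 8.31 FPKM). The fibroblast markers summed to 3154 and 9415 FPKM in MEF against 5.51 to 88.5 in CiPSC, and their part was not tested.

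CiPSC against day 16 asks what the step from the XEN-like stage to pluripotency changed. Trp53 rose by 2.50 (SE 0.20, adjusted p = 1.96e-07) and Ccnd3 by 2.03 (SE 0.24, adjusted p = 1.09e-05), while Ccnd2 fell by 3.95 (SE 0.49, adjusted p = 1.52e-05), Cdkn2a fell by 2.69 (SE 0.44, adjusted p = 0.000173), Cdkn2b fell by 2.64 (SE 0.36, adjusted p = 4.23e-05) and Cdkn2c fell by 1.85 (SE 0.25, adjusted p = 3.54e-05). These 6 calls were kept in every alternative. The 6 called genes, 2 higher and 4 lower, stand beside 29.9% of all genes (2162 higher and 2823 lower). The CiPSC and day 16 libraries overlapped for Mdm2. For Ccnd1 they did not overlap, and the gene narrowly missed the threshold (log2 difference -1.33, adjusted p = 0.0507). Cdkn1a was called lower without day 16 replicate 1 (log2 difference -1.30, adjusted p = 0.00794).

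Beside them, 11 of 20 proliferation genes were higher than at day 16 and none lower (median 1.05, against -0.02 over all genes), among them Mcm2 (1.82, SE 0.24, adjusted p = 2.6e-05); without day 16 replicate 1, 5 of the 11 were called. Cdkn1c, which encodes the third Cip/Kip inhibitor p57, went from 78.1 ± 14.0 FPKM at day 16 to 2.45 ± 0.888 in CiPSC (log2 difference -4.55, SE 0.35, adjusted p = 1.43e-07). Of the Ink4 and Arf regulators 4 of 12 were higher and 4 lower, with Cbx7 up by 3.89 (SE 0.38, adjusted p = 1.55e-06); without day 16 replicate 1 there were 2 higher and 3 lower, and without day 16 replicate 2 there were 3 higher and 2 lower. Of the p53 target genes 4 of 26 were higher and 6 lower (median 0.22), or 3 of each without day 16 replicate 2: the stress gene Ddit4 rose by 2.95 (SE 0.59, adjusted p = 0.000992) and Btg2 fell by 1.98 (SE 0.27, adjusted p = 4.59e-05). Of the p53 regulators, the deubiquitinase Usp7 rose by 1.60 (SE 0.17, adjusted p = 3.34e-06) and the kinase Hipk2 fell by 1.99 (SE 0.27, adjusted p = 3.29e-05). E2f1 was higher by 1.62 (SE 0.21, adjusted p = 2.28e-05), and of 18 G1/S partners 4 were higher and 1 lower, or 1 of each without day 16 replicate 1 (Ccne1, Cdc25a and Tfdp1 lost their call). The senescence-associated list had 8 of 16 lower and none higher, beside fibroblast marker sums of 146 and 327 FPKM at day 16 and 5.51 to 88.5 in CiPSC; their part was not tested.

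CiPSC against ESC asks how far the induced lines differ from embryo-derived pluripotent cells. None of the 10 genes was called in limma, and 1 (Cdkn2b, log2 difference 0.78, SE 0.36, adjusted p = 0.587) had an unadjusted p under 0.05. The background was 0.0601% of genes, 10 in all (6 higher and 4 lower), with 1412 at an unadjusted p under 0.05. Ccnd2 had the largest difference of the 10 (1.02, SE 0.49, adjusted p = 0.598). Without lines C1 and C2, a choice made after seeing the data, the difference of Ccnd2 was 1.45 with an adjusted p of 0.0747, and all genes called numbered 84. Without ESC replicate 1 they numbered 51. No gene of the 7 fixed lists was called. With 2 ESC libraries of different strains, a missed threshold does not show that the levels are the same.

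**Figure D5:**
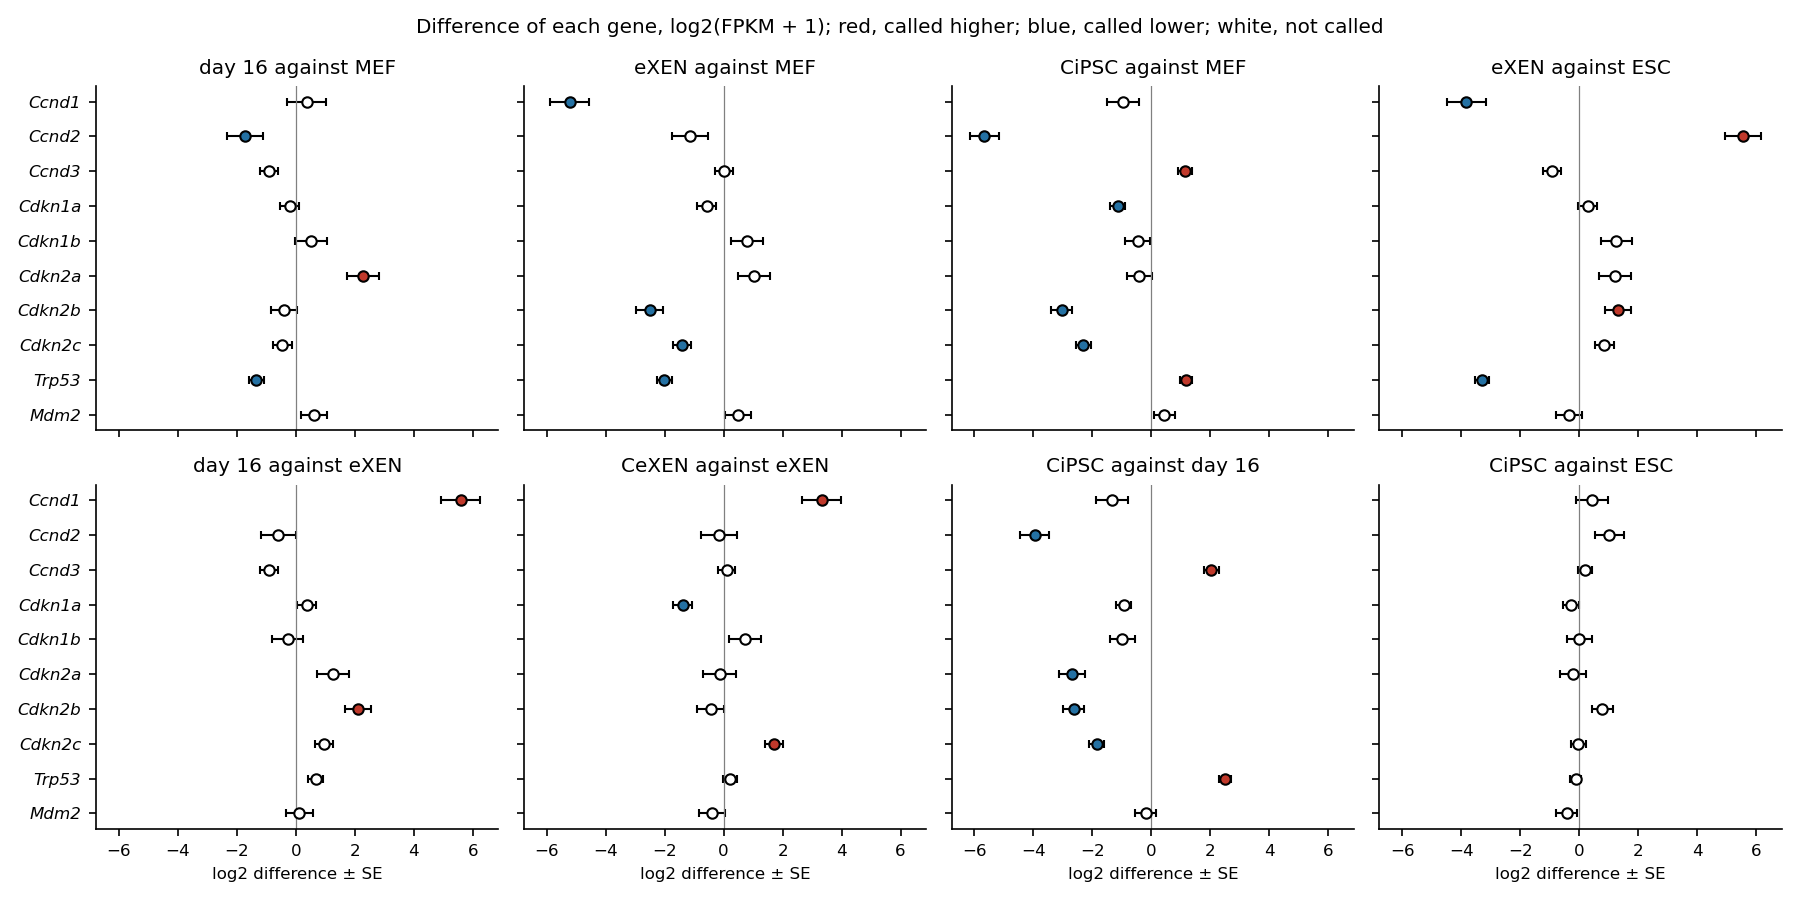
Log2 difference of each gene (points) with its SE (bars) in the 8 comparisons, first group minus second, on the log2(FPKM + 1) scale. Red and blue points passed the test as higher and lower; the differences of Ccnd2 between pluripotent and other cells reach -5.67 and 5.56.

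The established XEN line was set against MEF and ESC to place the XEN state. Against MEF, Ccnd1 fell by 5.22 (SE 0.66, adjusted p = 2.9e-05), Cdkn2b fell by 2.51 (SE 0.45, adjusted p = 0.00067), Trp53 fell by 2.01 (SE 0.24, adjusted p = 1.98e-05) and Cdkn2c fell by 1.42 (SE 0.31, adjusted p = 0.00303). These 4, all lower, stand beside 22.3% of all genes called (1474 higher and 2246 lower), and leaving out any library kept all 4. Cdk6, a partner kinase of D cyclins, fell from 3.75 ± 0.325 to 0.199 ± 0.246 FPKM (SD, n = 2 each, adjusted p = 0.00047), and Cdkn1c fell by 4.46 (SE 0.43, adjusted p = 2.22e-06). Of the p53 target genes 4 of 26 were higher and 5 lower, with the largest changes in the epoxide hydrolase Ephx1 (log2 difference -3.53, SE 0.59, adjusted p = 0.000342), the BH3-only gene Pmaip1 (-2.56, SE 0.62, adjusted p = 0.00559) and Gdf15 (-2.23, SE 0.38, adjusted p = 0.000383). Of the senescence-associated list 13 of 16 fell, and Igfbp7 went from 727 ± 53.6 to 0.315 ± 0.0782 FPKM. The fibroblast markers summed to 3154 and 9415 FPKM in MEF and at most 1.76 in eXEN, and their part was not tested. Of the G1/S partners 3 of 18 were higher and 2 lower, and the 3 higher lost their call without MEF replicate 2. Proliferation genes had 7 of 20 higher and none lower (median 0.81, all genes 0.00), and all 7 lost their call without MEF replicate 2. Of the 7, 2 were called without eXEN replicate 1 and 4 under median-of-ratios scaling, and without MEF replicate 1 there were 13 higher.

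Against ESC, eXEN had Ccnd2 higher by 5.56 (SE 0.61, adjusted p = 9.72e-06), Ccnd1 lower (log2 difference -3.83, SE 0.66, adjusted p = 0.00048) and Trp53 lower (log2 difference -3.30, SE 0.24, adjusted p = 2.31e-07). Cdkn2b was higher (4.03 ± 0.862 against 1.01 ± 0.184 FPKM; log2 difference 1.31, SE 0.45, adjusted p = 0.0344), but leaving out any 1 of the 4 libraries gave an adjusted p of 0.0596 to 0.165. Thus 4 genes were called, 2 higher and 2 lower, beside 28.1% of all genes (1628 higher and 3057 lower), and the share of higher calls over all genes was 34.7%, or 52.4% under quantile normalization. Proliferation genes had none of 20 higher and 11 lower (median -1.08 beside -0.26 over all genes), led by cyclin B2 (Ccnb2, log2 difference -1.27, SE 0.17, adjusted p = 5.31e-05). Of these 11, 5 were called without eXEN replicate 2, 7 without ESC replicate 1 and 5 under median-of-ratios scaling. Of 11 p53 regulators 7 were lower, among them Chek2 (-1.85, SE 0.20, adjusted p = 1.08e-05) and Chek1 (-1.81, SE 0.32, adjusted p = 0.000582), and 1, Hipk2, was higher. Of the 26 p53 target genes 3 were higher (Tnfrsf10b, Btg2 and Plk2) and 6 lower, with a median of 0.03 beside -0.26 over all genes. Not all 3 higher calls were kept without eXEN replicate 2 or without ESC replicate 2. Among the lower, Pmaip1 stood at 0.594 ± 0.175 FPKM against 66.2 ± 49.7 in ESC (log2 difference -5.17, SE 0.62, adjusted p = 2.12e-05). Of the 12 Ink4 and Arf regulators 3 were higher and 4 lower, and not all 4 lower calls were kept without eXEN replicate 1. The AP-1 repressor Jdp2 was higher (3.38, SE 0.72, adjusted p = 0.00216) and Cbx7 lower (-2.98, SE 0.47, adjusted p = 0.000217).

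Day 16 against eXEN asks in what the XEN-like cells of the route differ from embryo-derived XEN cells. Ccnd1 was higher at day 16 by 5.59 (SE 0.66, adjusted p = 3.95e-05) and Cdkn2b by 2.11 (SE 0.45, adjusted p = 0.00402), and no gene of the 10 was lower; all calls were 17.1% of genes (2326 higher and 527 lower). Both calls were kept when any 1 library was left out. Ccnd3 (log2 difference -0.91, adjusted p = 0.0418) and Cdkn2c (0.96, adjusted p = 0.0384) passed the p-value but not the size. Without day 16 replicate 2 both were called (-1.33 and 1.18), as they were without eXEN replicate 1 (-1.13 and 1.31), which takes the count of called genes from 2 to 4. Trp53 was called higher without day 16 replicate 1 (1.03, adjusted p = 0.0149). Over all genes the share of higher calls was 81.5%, or 53.2% under quantile normalization. Cdkn1c was higher at day 16 by 5.90 (SE 0.43, adjusted p = 5.29e-07), Cdk6 by 2.18 (SE 0.35, adjusted p = 0.00044) and Pmaip1 by 4.18 (SE 0.62, adjusted p = 0.000232). Of the 26 p53 target genes 4 were higher (Pmaip1, Perp, Ephx1 and Gdf15) and 4 lower (Tnfrsf10b, Zmat3, Bbc3 and Sesn2), with a median of 0.39 beside 0.23 over all genes. Without eXEN replicate 2 there were 2 of each, and without day 16 replicate 1 there were 5 higher and 1 lower. Of the senescence-associated list 8 of 16 were higher and none lower, led by Igfbp7 (6.40, SE 0.97, adjusted p = 0.000293) and Igfbp3 (5.84, SE 0.86, adjusted p = 0.000241). Fibroblast markers moved with these genes (sum of 146 and 327 FPKM at day 16 against at most 1.76 in eXEN), and their part was not tested.

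CeXEN against eXEN compares 2 kinds of embryo-derived XEN cells of 1 strain, though medium, derivation and line differ together. Ccnd1 was higher in CeXEN by 3.33 (SE 0.66, adjusted p = 0.00671) and Cdkn2c by 1.70 (SE 0.31, adjusted p = 0.00379). Cdkn1a was lower, with 37.9 ± 12.2 against 98.5 ± 8.01 FPKM (log2 difference -1.39, SE 0.32, adjusted p = 0.0164). The 3 called genes, 2 higher and 1 lower, stand beside 6.47% of all genes (668 higher and 409 lower). The calls depended on single libraries. Without eXEN replicate 2, the replicate in traditional medium, none of the 3 was called (adjusted p of 0.0594 for Ccnd1, 0.0548 for Cdkn2c and 0.0672 for Cdkn1a). Without CeXEN replicate 2 Ccnd1 had an adjusted p of 0.0930 and Cdkn1a of 0.176, and without eXEN replicate 1 Cdkn1a had 0.0641. All calls numbered 567 without eXEN replicate 2, 550 without CeXEN replicate 2 and 1847 without CeXEN replicate 1, against 1077 here. Their share of higher genes was 62.0%, or 49.8% under quantile normalization. Cdkn1c differed most among the listed genes, at 60.8 ± 26.2 FPKM in CeXEN and 0.315 ± 0.158 in eXEN (log2 difference 5.49, SE 0.43, adjusted p = 3.18e-06), and kept its call when any 1 library was left out. Of the p53 target genes none of 26 was higher and 4 were lower in CeXEN (median -0.61, all genes 0.06): Tnfrsf10b, Eda2r, Plk2 and Zmat3. All 4 lost their call without CeXEN replicate 2, the first 3 also without eXEN replicate 2 (adjusted p of those 3 from 0.0560 to 0.294), and Zmat3 also without eXEN replicate 1 (adjusted p of Zmat3 at least 0.0987 in both). No proliferation gene was called, and 1 was called lower under quantile normalization, median-of-ratios scaling, a pseudocount of 0.1 or a filter at 5 FPKM.

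As mean log2(FPKM + 1) over each list, the 26 p53 target genes ranged from 3.5 to 4.17 in the XEN libraries, 4.17 to 4.38 in MEF, 4.15 to 5.01 over the days (day 12 highest) and 4.35 to 4.60 in ESC and CiPSC. The 20 proliferation genes ranged from 5.0 to 6.0 in MEF, 5.36 to 6.32 over the days, 6.09 to 6.42 in XEN cells and 7.01 to 7.23 in ESC and CiPSC, the last above all other libraries. The senescence-associated list was lower in XEN and pluripotent cells (1.02 to 2.23) than in MEF (4.31 and 5.95). Over the days it ranged from 1.63 (day 28) to 4.65, the highest day within the MEF range. Many genes of this list are made by fibroblasts, whose part was not tested.

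For each of the 10 genes, the genes of most similar level over the 21 libraries were found by Pearson's r of log2(FPKM + 1) among 10874 genes. These libraries share groups, so the values describe the groups and carry no p. Trp53 was most like Dmd (r = 0.993, Spearman's rho 0.945), Zdbf2 and Kpna6. Ccnd2 was most like Elovl1 (0.976, rho 0.912), B2m and App. Cdkn2b was most like Fzd1 (0.967, rho 0.877) and Cdkn2c like Ext1 (0.963, rho 0.927). Ccnd3 was most like Plekha2 (0.938, rho 0.919), Cdkn1b like Gbas (0.922, rho 0.900), Ccnd1 like Gusb (0.919, rho 0.830) and Cdkn2a like Suv39h1 (0.871, rho 0.775). For Cdkn1a the most similar were Parp8 (0.865, rho 0.871), Homer3 and Phlda3, a p53 target. Mdm2 had the least similar best match, Tmem199 (0.750, rho 0.581).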

How the data were processed

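RNA was isolated with the RNeasy Plus Mini kit and libraries were made with the NEBNext Ultra kit, per the labels. The authors deposited 1 table of FPKM per library with lower and upper bounds, made with TopHat and Cufflinks on mm10, per the submitters' processing notes; versions are not given in the sources used here. Values were tested as log2(FPKM + 1), which understates changes of low genes. Genes of at least 1 FPKM in at least 2 libraries (16650) entered limma 3.58.1 (R 4.3.3) with a variance trend, 1 coefficient per group over all 21 libraries and 11 residual degrees of freedom. P-values were two-sided and adjusted by Benjamini-Hochberg within a comparison over all genes tested. Groups of 1 library were described, not tested. The fit was tested on simulated data.

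The 10 genes, the 7 gene lists and the 8 comparisons were chosen with earlier results of these data known. Named genes are the 10, up to 3 called genes of largest change per list and comparison, and the most similar genes by correlation. List genes printed beyond these, among them Bax, Zmat3, Tfdp1, Trp53inp1 and Sesn2, were chosen after their values were seen. Of 106 list genes 105 were tested. The values of 1 list gene are not reported here. Gene spans are the loci the authors gave with the values, overlaps are from GENCODE M21, and starts and sequences are from RefSeq (GRCm38.p6). Depth was read from the bounds of low values. Alternatives covered pseudocount, filters, scaling, the groups fitted, a replicate block, each replicate left out and, after seeing the data, the LOWDATA libraries as a covariate and lines C1 and C2 left out. Python 3.11.15, numpy 2.4.6, pandas 2.3.3, scipy 1.17.1 and matplotlib 3.10.9 were used.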

Additional observations from a re-analysis of the deposited data

How the results depend on the processing

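Over the 10 genes and 8 comparisons, 28 of 80 tests were called; 15 of the 28 were called in every alternative, and 38 of the 52 not called were called in none. Of 1090 alternative values 36 lost and 31 gained a call, and no direction reversed where either the main or the alternative fit called the gene. Sign changes where neither fit called the gene were not counted. Ccnd1 for day 16 against MEF, called in no alternative, ranged from -0.21 to 0.95. Fitting only the 2 groups compared, with few residual degrees of freedom, gave 0 called genes for day 16 against MEF (0 of the 10 genes), 890 for eXEN against MEF (2 of the 10), 533 for day 16 against eXEN (1), 0 for CeXEN against eXEN (0) and 26 for CiPSC against ESC. With the LOWDATA libraries as a covariate, 1 of the 10 genes was called for day 16 against MEF (Trp53 difference -0.98, Ccnd2 -1.33). Leaving out day 16 replicate 1 gave the same differences, since day 12, day 20 and day 26 have 1 library each. The covariate therefore cannot set processing apart from that replicate. For CiPSC against ESC, the pseudocount of 0.1 and the filter at 5 FPKM each gave 5 called genes, and leaving out lines C1 and C2 gave 84. Leaving out replicates gave 1 to 3 of the 10 genes for day 16 against MEF, 2 to 4 for day 16 against eXEN, 0 to 3 for CeXEN against eXEN, 550 to 1847 called genes for CeXEN against eXEN and 9 to 51 for CiPSC against ESC, the 51 without ESC replicate 1. The cause of these differences was not tested, beyond the fewer samples fitted.

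Replicate numbers do not pair these samples: numbers mark media in eXEN and strains in ESC, and the replicate differences of 5 groups correlated between groups at -0.116 to 0.051. With a replicate block the called genes numbered 3472 for day 16 against MEF, 3740 for eXEN against MEF, 6146 for CiPSC against MEF, 4678 for eXEN against ESC, 2838 for day 16 against eXEN, 1084 for CeXEN against eXEN, 4980 for CiPSC against day 16 and 9 for CiPSC against ESC. Among the 10 genes it moved Ccnd2 for day 16 against MEF to an adjusted p of 0.0578 and Ccnd1 for CiPSC against day 16 to 0.0391, and changed no other call.

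Depth limits the lowest values: Ccnd1 in eXEN rests on about 7.17 and 1.53 fragments and Ccnd2 in ESC on about 13.0 and 25.8, so that their differences carry the wide bounds of 9 values under 1 FPKM (half-widths of 39.4% to 162%). Intervals cover counting error and the quantifier's model only.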
